A study of Mus musculus with 8 samples.

Results

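Immediate early response genes are switched on within minutes of a stimulus, from factors already present in the cell, and were followed here in mouse induced pluripotent stem (iPS) cells and embryonic stem (ES) cells. The genes were taken by symbol from the array annotation: the AP-1 genes Fos, Fosb, Jun, Junb and Jund, the bZIP gene Atf3, the zinc-finger genes Egr1 and Klf6, and Ier2 and Ier3. The annotation gave 16 probe sets for these 10 genes, out of 18193 genes and 45101 probe sets in all. Fos and Jun proteins pair into the AP-1 transcription factor, which binds promoters and enhancers, and growth factors, serum, stress and enzymatic dissociation are among the known inducers of these genes. In pluripotent cells the FGF and ERK pathway is a well-known input to Egr1, through serum response elements in its promoter, while hypoxia and the integrated stress response are known to raise several of the others.

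The series held 8 Affymetrix 3' expression arrays, with 2 each for iPS line 1, iPS line 2, iPS line 3 and the ES control. The iPS cells carry no integrated reprogramming vector and the ES control is a normal ES line, per the labels. All 4 lines are C57BL/6 and male and were used at passage 7 to 10. All were grown in N2B27 medium with mouse LIF, a cytokine that holds mouse cells in the pluripotent state, and all were collected with trypsin before lysis in Trizol. Each group is therefore 1 cell line, and what sets an iPS line apart from the ES line cannot be told apart from what sets any 2 lines apart. The titles name biological replicates without saying whether these were separate cultures, so a p-value here speaks only of how arrays of 1 line scatter, and that scatter may be technical.

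The deposited values are linear MAS5 signals, and their mean after trimming 2% at each end was 500.004 on every array. Between 58.0% and 61.3% of probe sets on an array exceeded a low-signal floor of 37.1, and 15 of the 16 probe sets of the immediate early genes did so on all 8 arrays. All 10 pluripotency markers were above the floor on every array, with Utf1, the dimmest on each, at 542 to 1202. Of 11 fibroblast markers measured, 3 to 5 were above the floor on an array. Vim, which many cell types express, made up most of their sum, and Col1a2 was above the floor on all 8 arrays (37.15 to 109), while Col1a1, Dcn, Postn and Twist2 were under it on all 8. The arrays of line 2 stood apart from the rest in other readouts as well. The 3'/5' ratio of the beta-actin control probe sets, a measure of RNA integrity, was 1.74 and 1.79 in line 2, against 1.49 to 1.62 on the 6 arrays of the other lines. The same ratio for Gapdh overlapped, at 0.915 and 0.946 in line 2 and 0.857 to 0.935 on the other 6 arrays. The summed signal of the 5 trophoblast markers measured was 3749 and 4179 in line 2, 2419 to 3089 in lines 1 and 3, and 2116 and 2225 in ES cells. Of these 5 markers, 4 were above the floor on 7 arrays and 5 on the other, and most of the sum was Tfap2c, while the defining marker Elf5 was under the floor on both line 2 arrays. The summed fibroblast markers did not set line 2 apart upwards, at 6222 and 7331 in line 2, 7432 to 9401 in lines 1 and 3, and 7045 and 7065 in ES cells. One marker of that list, Pdgfrb, reached 247 and 177 in line 2, 24.5 to 58.2 in lines 1 and 3, and 58.2 and 55.9 in ES cells. The 6 blood and endothelial markers summed to 410 and 488 in line 2, 274 to 352 in lines 1 and 3, and 371 and 311 in ES cells, with Ptprc under the floor on all arrays and Pecam1 the brightest. The summed signals of primitive endoderm markers (318 and 358 in line 2, 282 to 359 on the other 6 arrays) and of neural markers (913 and 856 in line 2, 796 to 1184 on the other 6) did not set line 2 apart. The part of RNA quality or of these marker genes in the results below was not tested. On arrays of whole cultures, more cells with a transcript and more transcript per cell cannot be told apart.

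iPS line 2 carried higher signals than ES cells of 8 of the 10 immediate early genes, and a lower signal of 1, Ier2. Against a background of 16.1% of all 14004 tested genes higher and 10.6% lower in line 2, the genes called here were 8 of 10 and 1 of 10. Their median difference from ES cells was 1.10 on the log2(signal + 12) scale, beside 0.07 over all genes tested. Here and below, a gene was called higher or lower where limma's Benjamini-Hochberg adjusted p over all tested genes was under 0.05, errors of differences are standard errors, and folds are on the log2(signal + 12) scale, which understates changes of dim genes. Centring each array on its median turned the split of all calls in line 2 from 60.4% higher to 46.2% higher, and left 9 of the 10 immediate early genes called. The lines share the 2 ES arrays as their control, so the differences of the 3 lines from ES cells are not independent of each other.

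**Figure D1:**
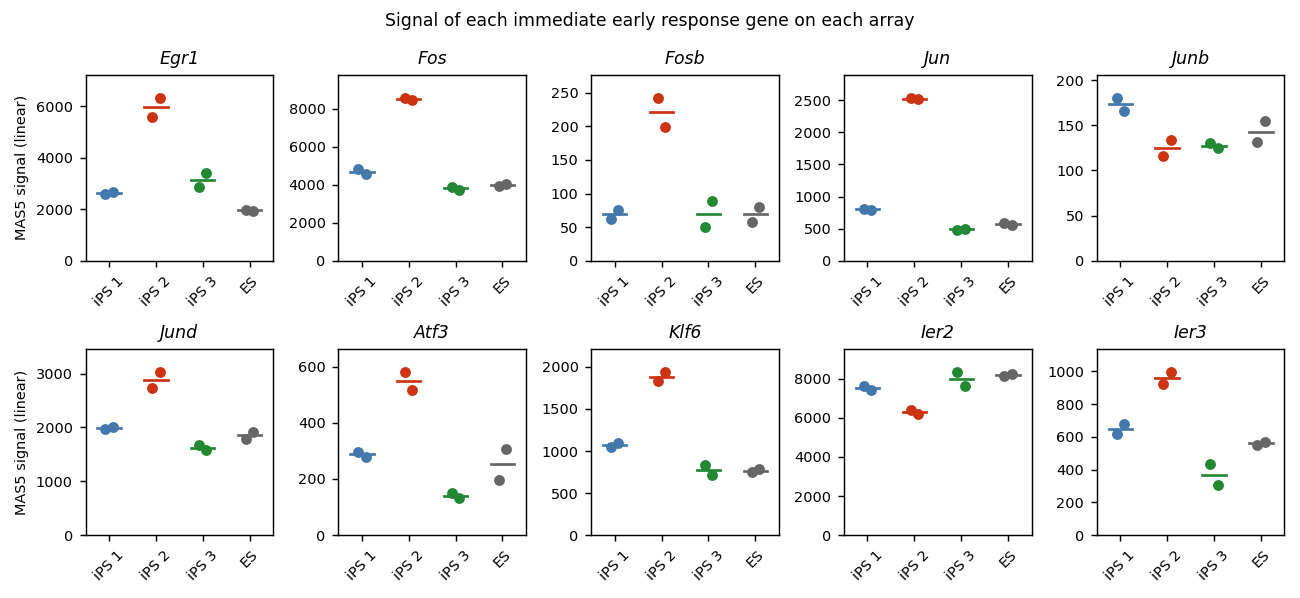
MAS5 signal (linear scale, 1 axis per gene from 0) of each of the 10 immediate early genes on the 8 arrays, by line; points are arrays and bars are means of 2 arrays. The line 2 points lie above all others for 8 genes, below all others for Ier2, and overlap the others for Junb. How many of all genes separate in this way was not counted.

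Among the Jun family, Jun itself, a subunit of AP-1, changed most. Jun had signals of 2537 and 2514 in line 2, against 590 and 559 in ES cells. Line 1 gave 811 and 797, and line 3 gave 486 and 494. The line 2 arrays were far above all others, the line 1 arrays above ES, and the line 3 arrays below ES. In line 2 Jun was 4.32-fold higher than in ES cells (log2 difference 2.11 ± 0.08, limma adjusted p = 2.0e-08), the 36th largest difference in size among the 14004 genes. It was also higher in line 1, by 0.48 ± 0.08 (limma adjusted p = 0.0101), whereas the difference of line 3, -0.23 ± 0.08, did not pass (limma adjusted p = 0.178). The levels of Jun thus ran from line 2 through line 1 to ES cells and line 3, and the difference within the last pair did not pass the test.

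Jund, the Jun family member commonly expressed in unstimulated cells, had signals of 2738 and 3028 in line 2, against 1789 and 1915 in ES cells. In line 1 it had 1972 and 2012, and in line 3 it had 1669 and 1580. Line 2 was above every other array and the call was made there alone (0.63 ± 0.08, limma adjusted p = 6.86e-05), with 0.11 ± 0.08 in line 1 and -0.19 ± 0.08 in line 3. Junb, a Jun relative that often opposes Jun, was dim and did not follow it. Its signals were 116 and 133 in line 2, 180 and 166 in line 1, and 131 and 124 in line 3, against 131 and 155 in ES cells. The line 2 arrays overlapped those of ES cells, the line 3 arrays lay just below and the line 1 arrays above, and no difference from ES passed, with -0.18 ± 0.20 in line 2 (limma adjusted p = 0.563), 0.26 ± 0.20 in line 1 and -0.15 ± 0.20 in line 3. These errors leave room for changes of the size seen for Ier2.

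Fos, the partner of Jun in AP-1, had signals of 8567 and 8453 in line 2, against 3917 and 4052 in ES cells. Line 1 gave 4817 and 4560, and line 3 gave 3903 and 3718. In line 2 it was 2.13-fold higher (1.09 ± 0.06, limma adjusted p = 1.72e-07), with no overlap with any other array. The line 1 arrays were above and the line 3 arrays below those of ES cells, but neither difference passed, with 0.23 ± 0.06 (limma adjusted p = 0.0700) in line 1 and -0.06 ± 0.06 (limma adjusted p = 0.641) in line 3. Fosb, a Fos relative that also pairs with Jun proteins, was near the floor in every line but line 2. Its signals were 242 and 199 in line 2, 62.6 and 75.6 in line 1, and 50.5 and 88.8 in line 3, against 58.3 and 79.9 in ES cells. The line 2 arrays were the highest and those of the other lines overlapped. In line 2 it was 2.88-fold higher (1.53 ± 0.29, limma adjusted p = 0.00203), while lines 1 and 3 gave 0.01 ± 0.29 and -0.02 ± 0.29.

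Egr1, a zinc-finger transcription factor used as a readout of ERK signalling, was the only one of the 10 genes higher in all 3 iPS lines. Its signals were 5601 and 6327 in line 2, 2608 and 2669 in line 1, and 2881 and 3425 in line 3, against 1986 and 1925 in ES cells. All 6 iPS arrays were above both ES arrays, and the line 2 arrays were above the rest. Relative to ES cells, Egr1 was 3.03-fold higher in line 2 (1.60 ± 0.09, limma adjusted p = 1.56e-07). In line 3 the difference was 0.68 ± 0.09 (limma adjusted p = 9.35e-04), and in line 1 it was 0.43 ± 0.09 (limma adjusted p = 0.0207). Both line 3 arrays were above both line 1 arrays, but that difference, 0.25 ± 0.09, did not pass (limma adjusted p = 0.208). Klf6, a Krüppel-like zinc-finger factor, followed Jun more than Egr1. Its brightest probe set had signals of 1833 and 1938 in line 2, 1053 and 1091 in line 1, and 835 and 718 in line 3, against 746 and 782 in ES cells. Line 2 was above every other array, line 1 above ES, and line 3 overlapped ES. Klf6 was 2.45-fold higher in line 2 (1.29 ± 0.09, limma adjusted p = 1.13e-06) and higher by 0.48 ± 0.09 in line 1 (limma adjusted p = 0.0164), with 0.02 ± 0.09 in line 3.

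Atf3, a stress-induced bZIP factor that dimerises with Jun proteins, was higher in line 2 and lower in line 3. Its signals were 580 and 517 in line 2, 296 and 279 in line 1, and 150 and 131 in line 3, against 196 and 308 in ES cells. Line 2 was the highest and line 3 the lowest, and line 1 lay between the 2 ES arrays. The difference from ES cells was 1.12 ± 0.19 in line 2 (limma adjusted p = 8.74e-04) and -0.76 ± 0.19 in line 3 (limma adjusted p = 0.0426). Ier3, a short-lived protein linked to cell survival, had the same order. Its signals were 923 and 996 in line 2, 618 and 677 in line 1, and 434 and 306 in line 3, against 549 and 572 in ES cells. The 4 groups did not overlap. Ier3 was higher by 0.76 ± 0.14 in line 2 (limma adjusted p = 0.00156) and lower in line 3, where the difference was -0.60 ± 0.14 (limma adjusted p = 0.0337).

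Ier2, an immediate early gene whose product acts in transcription, went the other way in line 2. Its signals were 6407 and 6174 in line 2, 7622 and 7423 in line 1, and 8340 and 7621 in line 3, against 8135 and 8246 in ES cells. The line 2 arrays were below every other array and the line 3 arrays overlapped ES cells. The fall in line 2 was small but passed the test, at -0.38 ± 0.06 (limma adjusted p = 5.30e-04). Lines 1 and 3 gave -0.12 ± 0.06 and -0.04 ± 0.06, which did not pass.

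Line 1 and line 3 gave far fewer calls. In line 1, 3 of the 10 genes were higher (Egr1, Jun and Klf6) and 0 lower, where 1.21% of all genes were higher and 1.12% lower. The 7 others include 1 further gene, Fos, at an unadjusted p under 0.05, where 1062 of all 14004 genes were higher and 892 lower. In line 3, 1 was higher (Egr1) and 2 were lower (Atf3 and Ier3), where 1.58% of all genes were higher and 2.57% lower. The line 1 calls rest on each array of that comparison. With either line 1 array or either ES array left out, limma called 0 of the 10 genes in line 1, while the differences stayed between 0.41 and 0.45 for Egr1, 0.44 and 0.51 for Jun, and 0.45 and 0.52 for Klf6. In line 3 the Atf3 call was lost with any single array left out except ES control replicate 1, its difference being -0.45 without ES control replicate 2 and -1.07 without ES control replicate 1. The Ier3 call in line 3 was lost without line 3 replicate 2 (-0.36), ES control replicate 1 (-0.63) or ES control replicate 2 (-0.57). Under median centring 63.2% of the calls over all genes in line 1 were in the higher direction, beside 52.0% without it, and in line 3 50.9%, beside 38.0%.

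**Figure D2:**
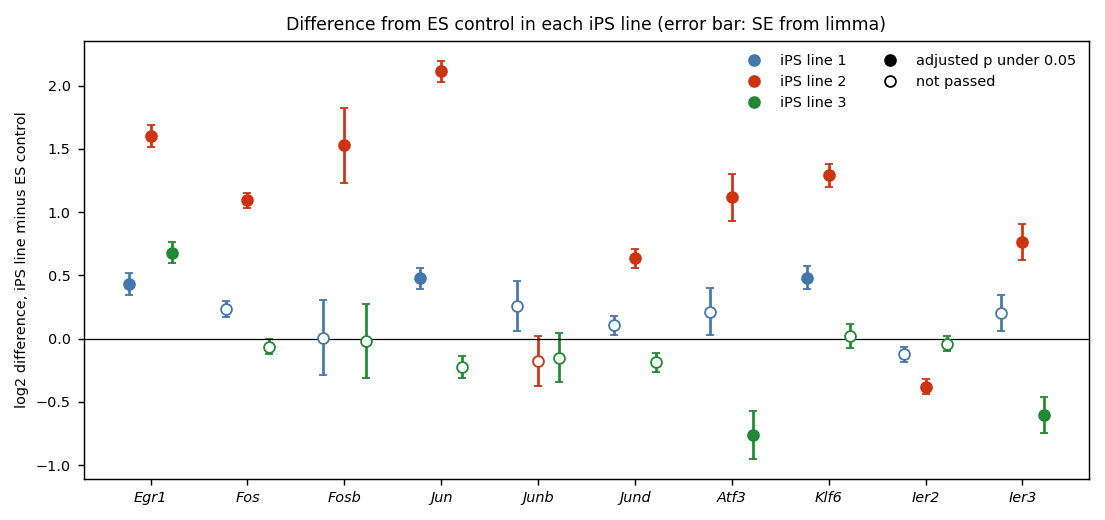
Differences from ES cells of the 10 immediate early genes on the log2(signal + 12) scale, for the 3 iPS lines; error bars are limma standard errors and filled points passed an adjusted p of 0.05. In line 2, 8 genes are filled above 0 and Ier2 below it, whereas line 1 has 3 filled points and line 3 has 3, of which Atf3 and Ier3 lie below 0.

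Averaged with equal weight over the 3 iPS lines, 4 of the 10 genes were higher than in ES cells and 1 was lower, where 4.27% of all genes were higher and 3.03% lower. Those called higher were Egr1 (0.90 ± 0.07, limma adjusted p = 1.04e-05), Jun (0.79 ± 0.07), Klf6 (0.60 ± 0.08) and Fos (0.42 ± 0.05). Ier2 was lower (-0.18 ± 0.05, limma adjusted p = 0.0440), a call that was lost with any single array left out (-0.19 to -0.16) except line 2 replicate 1 and line 3 replicate 1. The average is carried by line 2. Without it, the mean of lines 1 and 3 differed from ES cells by 0.56 for Egr1, which alone stayed called, by 0.25 for Klf6, by 0.13 for Jun and by 0.08 for Fos.

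Set against the other iPS lines in place of the ES cells, line 2 gave the same calls. Relative to the mean of lines 1 and 3, 8 of the 10 genes were higher and Ier2 was lower, where 19.6% of all genes were higher and 12.9% lower. Jun had the largest of these differences (1.99 ± 0.07, limma adjusted p = 6.31e-09), followed by Fosb (1.53 ± 0.25), Atf3 (1.39 ± 0.16), Egr1 and Klf6 (both 1.04, with errors of 0.07 and 0.08), Fos (1.01 ± 0.05), Ier3 (0.96 ± 0.12) and Jund (0.68 ± 0.07). The median difference of the 10 genes was 1.02, beside 0.08 over all genes. Centring each array on its median turned the split over all genes from 60.4% higher to 39.1% higher, and left 9 of the 10 genes called. Line by line, 8 were higher and 1 lower in line 2 than in line 1 (all genes 13.8% higher and 9.52% lower), and 8 were higher and 1 lower in line 2 than in line 3 (all genes 19.0% and 12.1%).

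Lines 3 and 1 were also set against each other. In line 3, 5 of the 10 genes were lower than in line 1 and 0 were higher, where 1.04% of all genes were lower and 0.350% higher. They were Atf3 (-0.97 ± 0.19), Ier3 (-0.81 ± 0.14), Jun (-0.70 ± 0.08), Klf6 (-0.46 ± 0.09) and Fos (-0.30 ± 0.06), with limma adjusted p-values of 0.00110 to 0.0316. Fos is the one of these 5 genes with no call against ES cells in either line. These calls were not rerun with arrays left out or under other processing. In the limma fit over 30965 probe sets described below, the same probe sets did not pass for Klf6 (limma adjusted p = 0.0521) and Fos (limma adjusted p = 0.0572). Those of Jun, Ier3 and Atf3 passed there as well.

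Several probe sets measured Jun, Klf6 and Jund, which allowed a check within a gene. In a separate limma fit over 30965 probe sets, both Jun probe sets (2.11 ± 0.09 and 1.93 ± 0.18) and all 5 Klf6 probe sets (1.10 to 1.63) were higher in line 2 than in ES cells. In line 1 the brighter Jun probe set and 3 of the 5 Klf6 probe sets passed. The dimmer Jun probe set had a similar difference there, 0.50 ± 0.18, that did not pass (limma adjusted p = 0.301). The probe sets of Jund disagreed. The dimmer Jund probe set was above the floor on only 3 arrays, with signals of 62.4 and 3.52 in line 2 against 66.0 and 45.6 in ES cells, and its difference of -0.98 ± 0.71 did not pass. Averaging both Jund probe sets therefore turned the Jund value in line 2 to -0.17 and ended its call.

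**Figure D3:**
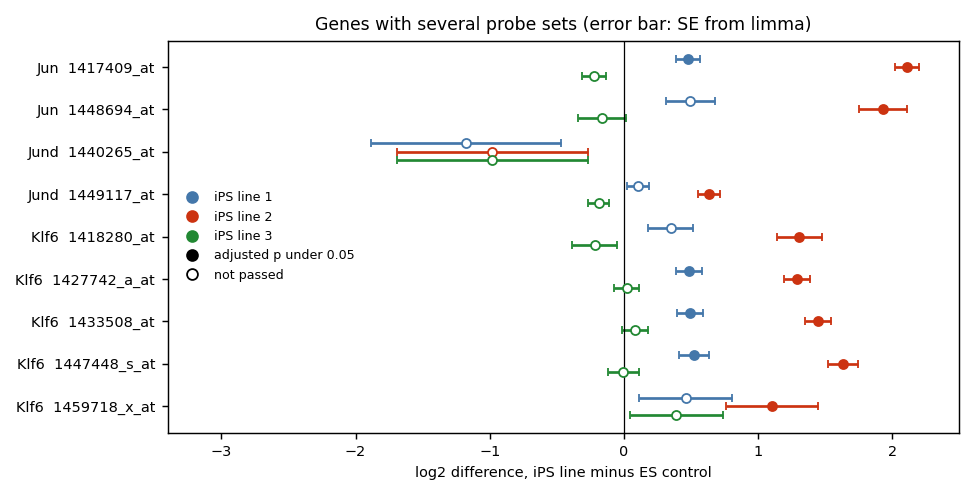
Differences from ES cells (log2(signal + 12) scale) of each probe set of Jun, Jund and Klf6 in the 3 iPS lines; error bars are limma standard errors and filled points passed an adjusted p of 0.05 over 30965 probe sets. Both Jun and all 5 Klf6 probe sets are filled to the right of 0 in line 2, while the dimmer Jund probe set has wide bars left of 0 in all lines.

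Promoters of 4 genes higher in line 2 (Jun, Klf6, Fos and Fosb) are shown for the motifs they hold, beside that of Junb, a relative that did not pass. RefSeq promoter windows (GRCm38.p6) were given for 8 of the 10 genes, all but Egr1 and Ier2, and those of Jund, Atf3 and Ier3 are not printed. Each sequence below runs from 130 bases before the annotated start through the first 20 bases of the transcript. Capitals mark the half-site of the cAMP response element, TGACG, bound by CREB and ATF proteins, or the 8-base AP-1 or CRE-type motif TGANNTCA. The windows are Jun at chr4:95052203-95052352 (minus strand), Klf6 at chr13:5861359-5861508 (plus), Fos at chr12:85473760-85473909 (plus), Fosb at chr7:19310026-19310175 (minus) and Junb at chr8:84978729-84978878 (minus).
Jun: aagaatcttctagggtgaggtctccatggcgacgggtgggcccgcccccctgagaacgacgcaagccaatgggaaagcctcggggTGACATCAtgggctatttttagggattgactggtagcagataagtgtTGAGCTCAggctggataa
Klf6: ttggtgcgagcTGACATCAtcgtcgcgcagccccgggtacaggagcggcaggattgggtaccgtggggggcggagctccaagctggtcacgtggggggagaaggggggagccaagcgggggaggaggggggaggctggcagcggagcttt
Fos: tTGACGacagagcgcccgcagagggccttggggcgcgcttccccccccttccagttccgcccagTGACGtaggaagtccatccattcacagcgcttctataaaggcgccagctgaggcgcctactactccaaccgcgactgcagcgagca
Fosb: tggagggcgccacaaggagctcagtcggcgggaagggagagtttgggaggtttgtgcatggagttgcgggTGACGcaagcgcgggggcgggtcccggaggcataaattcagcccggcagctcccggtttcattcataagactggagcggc
Junb: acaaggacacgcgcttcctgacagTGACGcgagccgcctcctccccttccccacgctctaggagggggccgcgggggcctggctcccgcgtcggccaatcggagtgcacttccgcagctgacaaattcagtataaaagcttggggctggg

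Of the windows printed, chosen for these motifs, Jun and Klf6 hold the 8-base motif and the other 3 the half-site. Counted from the start, whose first transcribed base is 1, Jun held TGACATCA at -45 to -38 and TGAGCTCA at 3 to 10. Klf6 held the same TGACATCA at -119 to -112. Over the full windows of 250 bases before to 50 after the start, searched on both strands, 3 of the 8 promoters (Jun, Klf6 and Jund) held TGANNTCA and 4 of the 8 (Fos, Fosb, Junb and Atf3) held TGACG, while Ier3, also higher in line 2, held neither. Among all 32851 promoters of the table, 14.12% and 20.81% did. The full cAMP response element TGACGTCA was in 0 of the 8 and in 1.79% of all promoters, the 7-base AP-1 motif TGANTCA in 0 of the 8 and in 7.81%, and the CArG box of serum response factor in 0 of the 8 and in 1.63%. Sites more than 250 bases before the start were not searched, and Egr1 had no window. The half-site TGACG is contained in TGACGTCA. The hypoxia response core ACGTG was in 3 of the 8 (Ier3, Jund and Klf6) and in 19.62% of all promoters. Junb, without a called difference, shared the half-site with Fos and Fosb, so among these genes the letters do not separate those that changed in line 2 from the one that did not pass.

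Other genes of the response and its regulators were counted beside the shares over all genes. In either direction, 26.7% of all tested genes were called in line 2, 2.34% in line 1, 4.15% in line 3 and 7.30% on the mean of the 3 lines. At an unadjusted p under 0.05, 1062 of the 14004 genes were higher and 892 lower in line 1. The same counts were 1118 and 1355 in line 3, and 1761 and 1249 on the mean. Of 42 other immediate early genes listed, 40 were tested, and in line 2 17 were higher and 3 lower, with a median difference of 0.32. The share lower, 3 of 40, is under the 10.6% of all genes, and the share higher, 17 of 40, is above the 16.1%. Those higher included the phosphatase gene Dusp1 (0.66 ± 0.07), the matricellular gene Ccn2 (0.58 ± 0.05), the stress gene Gadd45b (0.73 ± 0.08) and the small GTPase gene Rhob. Gadd45b had signals of 2859 and 2608 in line 2 and 1206 and 1147 in line 3, against 1568 and 1717 in ES cells. It was thus high in line 2 and low in line 3, the order also seen for Atf3 and Ier3. The 3 genes lower in line 2 were Gadd45a, Myc and the RNA decay factor gene Zfp36l1 (-0.54). In line 1 only Gadd45g was called (higher), 1 of 40,, and in line 3 Gadd45g was higher and Dusp1, Gadd45b and Ccn1 were lower (10.0%). Gadd45g, with 168 and 174 in line 2, 146 and 193 in line 1, and 284 and 287 in line 3 against 83.2 and 81.6 in ES cells, shared with Egr1 a call in all 3 lines. On the mean of the 3 lines, 3 of the 40 were higher (Ccn2, Gadd45g and Rhob) and 3 lower.

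Of the other AP-1 and Maf-related bZIP genes, 9 of 11 were tested, and 1 was higher and 1 lower in line 2 (22.2% called, near the 26.7% of all genes). Jdp2, a Jun dimerization partner known as a repressor, had signals of 413 and 346 in line 2 and 84.8 and 113 in line 3, against 179 and 194 in ES cells. It was higher in line 2 (0.98, limma adjusted p = 0.00327) and lower in line 3 (-0.85, limma adjusted p = 0.0377). Atf2 was lower in line 2 (-0.25). None of the 9 passed in line 1 or on the mean of the 3 lines, where limma gave 0 calls and 1 gene at an unadjusted p under 0.05 in each.

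Among genes known to act upstream of the immediate early response, 17 of 25 were tested. In line 2, 4 were higher and 0 lower, or 23.5% called beside 26.7% of all genes (16.1% higher): the kinase genes Braf (0.72), Map2k1 (0.57) and Mapk9 (0.49), and Mrtfb (0.57), a coactivator of serum response factor. Braf was also the 1 gene of the list called on the mean of the 3 lines (0.39, limma adjusted p = 0.0141). Lines 1 and 3 gave 0 calls with limma in this list. At an unadjusted p under 0.05 they gave 2 and 1 genes, no larger a share than over all genes. Of 14 feedback inhibitors and targets of ERK signalling tested, 5 were lower in line 2, 0 were higher and 9 did not pass (35.7% called), with a median of -0.19. Relative to the mean of lines 1 and 3, 5 of the 14 were lower in line 2 and 2 were higher, where 12.9% of all genes were lower and 19.6% higher. Etv4, an ETS factor induced by FGF signalling, had signals of 159 and 157 in line 2, against 576 and 605 in ES cells (-1.82, limma adjusted p = 3.05e-06). Dusp6, an ERK phosphatase, was lower by a smaller amount (-0.70, limma adjusted p = 2.09e-05), as were Etv5 (-0.68), Spred1 (-0.55) and Spry4. In line 3 the Egr1 corepressor gene Nab2 was under the floor on both arrays, with a signal of 11.2 on the lower, against 65.9 and 77.2 in ES cells (limma adjusted p = 0.0160).

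Stress programmes that also draw in immediate early genes were listed for comparison. Of the 12 heat shock genes, 3 were lower (Hspa1b -0.57, Hsph1 -0.28 and Hspb1 -0.20) and 0 higher in line 2. Of all genes, 10.6% were lower and 16.1% higher there. In either direction, 3 of 12 is near the 26.7% of all genes, but the 3 calls were all lower. In line 1 and in line 3 limma called 0 of them, with 1 gene at an unadjusted p under 0.05 in each. Of the 14 integrated stress response genes tested, 11 were higher in line 2 and 0 lower (78.6% called), with a median of 0.60. In line 1, 4 were higher and 0 lower, and in line 3, 3 were higher and 1 lower (28.6% called in each). Nupr1, Phgdh and Psat1 were called higher in every line. Psat1 had its smallest difference in line 2, at 0.46, beside 0.65 in line 1 and 0.64 in line 3. Ddit4, an inhibitor of mTORC1, had signals of 8341 and 8280 in line 2, 1764 and 1849 in line 1, and 969 and 1018 in line 3, against 1300 and 1447 in ES cells. Ddit4 was called in every line, higher in lines 2 and 1 and lower in line 3. Of the 12 hypoxia genes, 11 were higher in line 2 (91.7% called) with a median of 1.64, 6 of 12 in line 1 with a median of 0.52, and 1 in line 3, where 3 were lower (33.3%). Ndrg1, a hypoxia-induced stress gene, had signals of 4058 and 4249 in line 2, 809 and 795 in line 1, and 319 and 324 in line 3, against 399 and 363 in ES cells. Bnip3, a mitochondrial protein gene of hypoxic cells, had 13391 and 12054 in line 2, 3085 and 3017 in line 1, and 1244 and 1260 in line 3, against 1838 and 1938 in ES cells. Ndrg1, Bnip3, Ankrd37 and Egln3 shared with Jun the order of line 2, line 1, ES cells and line 3. Pdk1, the 1 hypoxia gene higher in line 3, did not share it. Its differences were 0.95 in line 2, 0.40 in line 1 and 0.56 in line 3. Bnip3 passed in each line, with a difference of 2.74 in line 2, one of 0.69 in line 1 and one of -0.59 in line 3. The lists were chosen with earlier results of these data known, so their directions are no independent evidence.

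**Figure D4:**
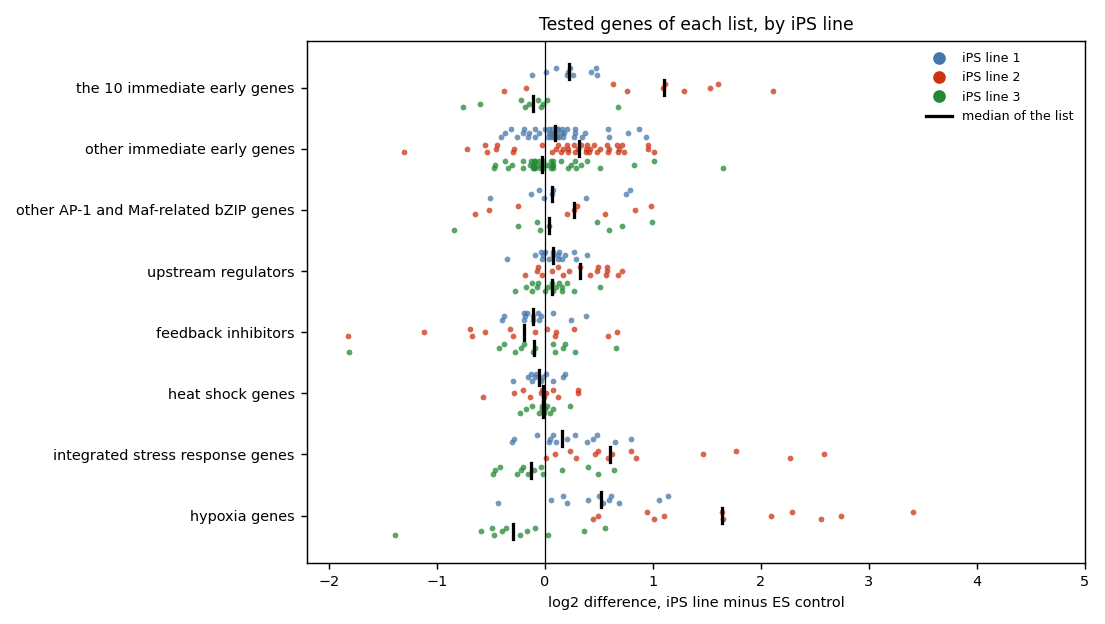
Differences from ES cells (log2(signal + 12) scale) of every tested gene of the immediate early genes and of 7 companion lists, by iPS line; points are genes and bars are medians of a list. In line 2 the medians are 1.10 for the 10 immediate early genes, 0.32 for other immediate early genes and 1.64 for hypoxia genes, while feedback inhibitors have a median of -0.19.

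Across the 8 arrays, the 10 genes were compared by their log2 levels with each other and with 6544 tested genes whose standard deviation over arrays was at least 0.25. The arrays fall into line 2 and the rest, so a high Pearson r mostly says that a gene shares that split, and r is given as a description only. Jun and Fos were nearly parallel (r = 0.996), Atf3 and Ier3 likewise (r = 0.952), and Egr1 was less like Ier3 (r = 0.525) or Atf3 (r = 0.582). Ier2 ran opposite to the 8 genes higher in line 2 (r = -0.956 to -0.742), and Junb was like none of them (r between -0.511 and 0.299). The genes most like Jun were Vldlr (0.998), Fam162a (0.997) and Ndrg1 (0.997), and those most like Fos were Fam162a, Ccng2 and Dock1. Klf6 was nearest to Map3k1, Fam117a and Rnf217. Jund was nearest to Kdm7a, Higd1a and Zbtb18, and Fosb to Foxn4, Tecpr2 and Poli. Egr1 had Mocos (0.982), Ccdc162 and Setd7 as its nearest genes. Atf3 was most like Prdm1, the long noncoding RNA Bvht and Gadd45b, and Ier3 most like Apobec1, Trib3 and Rbm47. The genes nearest to Ier2 were Dancr (0.995), Myc (0.989) and Btbd19, of which Dancr and Myc had differences of -0.60 and -1.30 in line 2.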

How the data were processed

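RNA of 8 samples labelled as ES control or iPS line 1, 2 or 3 was measured on Affymetrix arrays, 2 arrays each, from 6 ug of biotin-labelled total RNA per the labels' protocols. The deposited values are linear intensity signals, and the submitters' processing notes name MAS5 as the tool with which the authors made them. The sources used here give neither its version nor detection calls. Signals were used as deposited and each array number limits precision, since a group mean rests on 2 arrays. The members and all lists, tests and marker genes were chosen with earlier results of these data known.

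Gene names came from the platform annotation, in which 34945 probe sets had 1 symbol, 932 had several and 9160 had none, besides 64 controls. Only probe sets with 1 symbol entered the gene fit, and 0 probe sets with several symbols named one of the 10 genes. Values were log2(signal + 12), 12 being the 20th percentile of all signals. Probe sets had to exceed 37.1, the 40th percentile, on at least 2 arrays, and the one with the highest mean stood for its gene, leaving 14004 genes. All 10 genes passed. The test was limma's (version 3.58.1, R version 4.3.3, lmFit and eBayes with an intensity trend), in a group-means model over 8 arrays with 4 residual and 12.3 moderated degrees of freedom. Tests were two-sided and adjusted over all 14004 genes. The procedure was also run on simulated data whose levels and spread came from the fit, and its results are not given here. All 10 members are named. Companion genes named came from the up to 4 of each list with the smallest adjusted p in the mean and line 2 contrasts. Others are named where their call is given by line. Not all genes picked in this way are named. For each member called, the 3 genes with the highest Pearson r are named. Alternatives covered scaling, pseudocount, filter, probe set choice, variance model, replicate block, arrays in the fit and the mean without line 2.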

Additional observations from a re-analysis of the deposited data

Results flagged for a closer look

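Differences between iPS lines passed limma's test for 9 of the 10 genes, which marks each as a gene whose difference from ES cells varies with the line. Of all genes, 23.3% were called between lines 2 and 1, 31.2% between lines 2 and 3, and 1.39% between lines 3 and 1. The share of all genes called between any pair of lines was not counted. All values are log2 differences with Benjamini-Hochberg adjusted p over 14004 genes. Between line 2 and line 1 they were 1.64 for Jun, 1.52 for Fosb, 1.17 for Egr1, 0.90 for Atf3, 0.86 for Fos, 0.81 for Klf6, 0.56 for Ier3, 0.53 for Jund and -0.26 for Ier2, with limma adjusted p between 3.73e-07 for Jun and 0.0126 for Ier3. Between line 2 and line 3 they were 2.34 for Jun, 1.88 for Atf3, 1.55 for Fosb, 1.37 for Ier3, 1.27 for Klf6, 1.16 for Fos, 0.92 for Egr1, 0.82 for Jund and -0.34 for Ier2, with limma adjusted p between 3.59e-09 for Jun and 0.00151 for Fosb. Between line 3 and line 1 they were -0.97 for Atf3, -0.81 for Ier3, -0.70 for Jun, -0.46 for Klf6 and -0.30 for Fos, with limma adjusted p between 0.00110 for Jun and 0.0316 for Fos. Junb passed between no pair of lines. The alternatives described below were not run on pairs of lines. Between line 3 and line 1, Klf6 and Fos did not pass in the fit over probe sets.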

How the results depend on the processing

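In line 2, 9 of the 10 genes stayed called under 18 of the 19 alternatives, and 8 with all probe sets of a gene averaged. That setting turned Jund to -0.17 in line 2, -0.54 in line 1 and -0.43 on the mean. Of 29 called values in 5 contrasts, 17 kept call and direction under every alternative tried. Without the variance trend 0 genes were called in line 1 and 0 in line 3. In line 3 the count was 1 under median centring, without a filter and with only the groups compared. Leaving out 1 array gave 0 to 3 calls in line 1 and 1 to 2 in line 3. On the mean without line 2, 1 gene was called, and Fosb (-0.0046), Junb (0.054), Jund (-0.041), Ier3 (-0.20) and Atf3 (-0.27) changed sign, none of them called. Uncalled values near 0 also changed sign in line 3, for Fosb under quantile normalization (0.038) or centring (0.0285) and Ier2 under centring (0.0075). With single arrays left out, uncalled values ran from -0.12 to 0.50 for Atf3 and -0.13 to 0.085 for Junb on the mean, -0.18 to 0.20 for Fosb and -0.10 to 0.52 for Atf3 in line 1, and -0.087 to 0.13 for Klf6, -0.36 to 0.33 for Fosb and -0.10 to 0.026 for Ier2 in line 3.

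With a replicate block the counts were 5 on the mean, 3 in line 1, 9 in line 2 and 3 in line 3, as without it. Same-numbered arrays deviated with correlations of -0.011 to 0.03, so the numbers did not pair the arrays. The cause of the changes above was not tested.

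Over all genes, the calls in line 2 numbered 3741, and 2436 without the variance trend, while those counts were 327 and 47 in line 1 and 581 and 22 in line 3. On the mean they were 1022, 288 without the variance trend and 493 without line 2. Dim probe sets, such as those of Fosb and Junb, carry the widest errors.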
